A study of Mus musculus with 11 samples.

Results

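The complement genes *C1qa*, *C1qb*, *C1qc*, *C1ra*, *C1s1*, *C4b*, *C4a*, *C2*, *C3* and *Cfb* were examined in whole lacrimal glands of male NOD mice, a strain in which males spontaneously develop lacrimal gland inflammation. These 10 genes were taken by name from a table of 19058 genes, as the genes whose products start the classical pathway, form the C3 convertases or are their substrate. All 10 passed the filter on low counts that left 13937 genes for testing. The glands came from 3 WT mice, 5 *Tlr7* KO mice and 3 *Ifnar1* KO mice, with RNA of whole gland sequenced in 1 library per mouse. The *Tlr7* KO mice came from a strain fixed for a 2 base-pair deletion in *Tlr7*, a gene on chromosome X, made by CRISPR/Cas9 editing of NOD embryos. That allele came from a single N1 mouse that was crossed back to NOD for 1 generation. The *Ifnar1* KO mice were homozygous for the em16 allele of *Ifnar1*, on the NOD strain, and lack the receptor for type I IFN. The WT and *Tlr7* KO mice were aged 20 to 22 weeks, while the age of the *Ifnar1* KO mice was not given in the sources used here. Age and genotype therefore cannot be told apart in comparisons with *Ifnar1* KO mice. By the study's methods, a further *Ifnar1* KO mouse was left out because its expression and inflammation resembled WT, so the *Ifnar1* KO group was selected in part on an outcome and its values describe the mice kept. The comparisons ask how complement transcripts in the gland depend on TLR7 and on type I IFN signaling, and both KO groups were compared with the same WT mice.

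Complement is a cascade of plasma and tissue proteins. In the classical pathway, C1q binds antibody complexes or dying cells and activates the proteases C1r and C1s, which cleave C4 and C2 to form the enzyme that cleaves C3. The alternative pathway amplifies C3 cleavage through factor B, the product of *Cfb*. Liver makes most plasma complement, whereas C1q comes largely from tissue macrophages, and stromal, epithelial and myeloid cells can make C1r, C1s, C3, C4 and factor B. Interferons and other inflammatory cytokines are known to induce several of these genes. NOD mice lack C5, so the cascade is known to stop at C3 in this strain, and transcript levels do not measure complement protein or its activation.

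The libraries held 20512315 to 28814250 estimated counts each. Levels are given as CPM, counts scaled to a common library size with edgeR's TMM factors. The upper limit that a count of 0 allows, 3 counts, lay at 0.0819 to 0.158 CPM depending on the mouse, and this floor covers counting error only. Gland epithelial genes (12 genes including *Aqp5*, *Pigr* and *Krt8*) summed to 1517 to 1818 CPM in WT, 1998 to 2106 CPM in *Tlr7* KO and 2072 to 2152 CPM in *Ifnar1* KO glands, so the tissue carried the markers of its label. WT 2 stood apart from the other WT mice, with 80.4 CPM of the 8 B cell genes where WT 1 and WT 3 had 280 and 245 CPM. It also had 79.2 CPM of the 12 interferon-stimulated genes, against 268 and 280 CPM in the other WT mice. The fold changes of the 10 genes against WT are therefore given with and without WT 2. Salivary gland genes reached 547 CPM in WT 3, 432 CPM in *Ifnar1* KO 2 and 43.0 CPM in *Ifnar1* KO 1, but at most 1.21 CPM in each of the other mice. Likewise, skeletal muscle genes reached 321 CPM in WT 1, 233 CPM in WT 2 and 226 CPM in *Tlr7* KO 4, but at most 8.67 CPM in each of the other mice. The part of these tissues in the results was not tested beyond leaving out each mouse in turn. *Tlr7* itself was 3.08-fold lower in *Tlr7* KO glands (adjusted p = 0.00364). *Ifnar1* was 1.53-fold lower in *Ifnar1* KO glands (adjusted p = 0.0485), a call lost in the second deposited table of counts (adjusted p = 0.0642). Both transcripts were still detected. *Tlr7* was also 4.29-fold lower in *Ifnar1* KO glands (adjusted p = 0.0260), and *Ifnar1* was 1.42-fold lower in *Tlr7* KO glands (adjusted p = 0.0220).

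In *Tlr7* KO glands, 9 of the 10 complement genes were lower than in WT at an adjusted p under 0.05 (edgeR quasi-likelihood test, Benjamini-Hochberg adjustment over all genes tested, two-sided), where 17.4% of all genes tested were lower and 32.7% were called in either direction. *Cfb* was the exception. Across the 10 genes the log2 fold changes had a median of -1.11, beside -0.04 over all genes, and 6 of the 10 were at least 2-fold lower. In *Ifnar1* KO glands all 10 were lower than in WT, where 12.4% of all genes tested were lower and 19.2% were called in either direction. Their median log2 fold change was -2.04, beside -0.02 over all genes, and all 10 were at least 2-fold lower. These counts, and those below, include *C4a*, which passed the filter on low counts through WT, the group where it was high. Apart from *C4a*, every gene was called lower in *Ifnar1* KO glands, and every gene but *Cfb* in *Tlr7* KO glands. Without WT 2, all 10 genes were lower in each KO group, where 25.6% of all genes were lower in *Tlr7* KO and 20.8% in *Ifnar1* KO glands. The *Ifnar1* KO calls rested on few mice. Leaving out WT 1, *Ifnar1* KO 1 or *Ifnar1* KO 3 left 0 of the 10 genes called by edgeR, and leaving out WT 3 left 1. This loss was not particular to the 10 genes, as 2677 of all 13937 genes were called with every mouse in. Only 13 of 13114 were called without WT 1 and 103 of 12903 without WT 3. Without *Ifnar1* KO 1 it was 0 of 13937, and the same without *Ifnar1* KO 3. All 10 still had an unadjusted p under 0.05 in each of these fits. So did 3642 of all 13114 genes without WT 1 and 3565 of 12903 without WT 3. Without *Ifnar1* KO 1 it was 4383 of 13937, and without *Ifnar1* KO 3 it was 3778. With every mouse in, all 10 had one, where 37.6% of all genes did. In *Tlr7* KO glands leaving out WT 1 left 6 genes called, with 2735 of all 13114 genes called. DESeq2 called 9 of the 10 genes in *Tlr7* KO glands, with 4599 of all 13937 genes called, and 10 in *Ifnar1* KO glands, with 3356 called. WT and *Ifnar1* KO mice did not overlap for any of the 10 genes, where 21.1% of all genes had every *Ifnar1* KO mouse below every WT mouse. WT and *Tlr7* KO mice did not overlap for 5 of them, *C1qa*, *C1qb*, *C1qc*, *C3* and *C4a*, where 14.2% of all genes had every *Tlr7* KO mouse below. Because whole glands were sequenced, fewer cells of a type and less RNA per cell cannot be told apart.

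**Figure D1:**
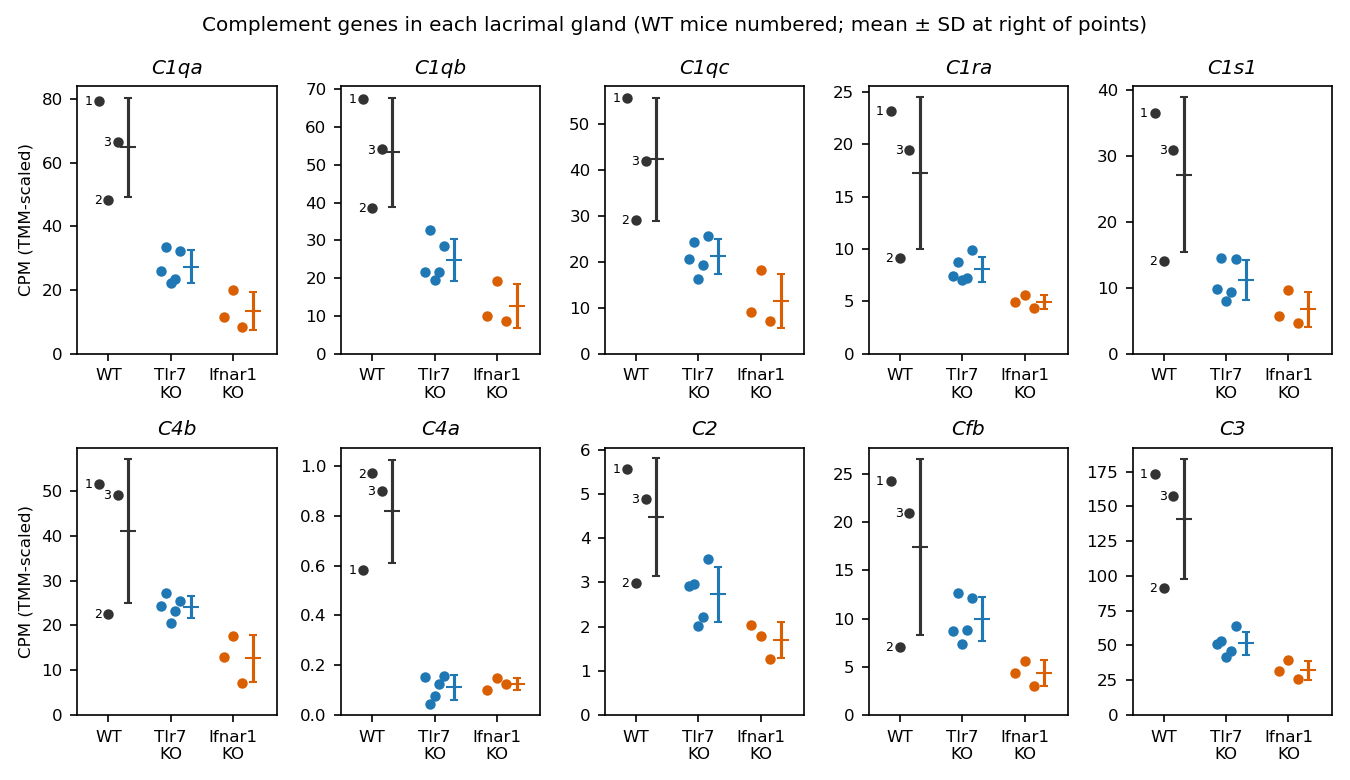
Level of each complement gene in CPM (y axis from 0) for the 3 WT, 5 *Tlr7* KO and 3 *Ifnar1* KO mice, 1 point per mouse, with the group mean ± SD beside the points and the WT mice numbered. WT 2 was the lowest WT mouse for 9 of the 10 genes, *C4a* being the exception. It lay within the *Tlr7* KO range for *C1ra*, *C1s1*, *C4b* and *C2*, and lay below it for *Cfb*.

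Per length of transcript, the C1q subunits were the most abundant of the 10 in WT glands, at 62.4 ± 15.04 CPM per kb for *C1qa*, 49.0 ± 13.3 for *C1qb* and 35.2 ± 11.1 for *C1qc* (SD, n = 3). *C3* followed at 27.4 ± 8.46 CPM per kb. The spread between mice of neighbours among these 4 genes overlapped, but their order held within each of the 11 mice. *C1s1* (9.21 ± 3.98), *C4b* (7.64 ± 2.995), *Cfb* (6.34 ± 3.32) and *C1ra* (5.79 ± 2.45) formed a lower tier whose spread between mice overlapped. *C2* was at 1.70 ± 0.51 and *C4a* at 0.152 ± 0.039 CPM per kb, each beyond the spread of the gene above it. In *Ifnar1* KO glands *C1qa* still led at 12.8 ± 5.79 and *C3* stood at 6.28 ± 1.33 CPM per kb.

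C1q is built from the A, B and C chains encoded by *C1qa*, *C1qb* and *C1qc*, which lie side by side on the minus strand at chr4:136880129-136898803 (GRCm38), each with 3 exons in its longest transcript. *C1qa* had 79.6, 48.5 and 66.7 CPM in WT 1 to WT 3. It had 26.0, 33.4, 22.1, 23.3 and 32.2 CPM in *Tlr7* KO 1 to 5, and 11.5, 19.98 and 8.33 CPM in *Ifnar1* KO 1 to 3. Every WT mouse was above every KO mouse. *C1qa* was 2.38-fold lower in *Tlr7* KO (log2 fold change -1.25 ± 0.18 SE, adjusted p = 0.00206) and 4.98-fold lower in *Ifnar1* KO glands (-2.32 ± 0.33, adjusted p = 0.0207). *C1qb* had 67.4, 38.5 and 54.1 CPM in WT, 21.5, 32.8, 19.6, 21.5 and 28.4 CPM in *Tlr7* KO, and 9.83, 19.3 and 8.58 CPM in *Ifnar1* KO mice. The WT mice were again all above the KO mice. It was 2.16-fold lower in *Tlr7* KO (adjusted p = 0.00494) and 4.33-fold lower in *Ifnar1* KO glands (adjusted p = 0.0216). *C1qc* had 55.8, 29.1 and 41.98 CPM in WT, 20.5, 24.4, 16.3, 19.3 and 25.7 CPM in *Tlr7* KO, and 9.15, 18.2 and 7.12 CPM in *Ifnar1* KO mice. No KO mouse reached the lowest WT mouse. It was 1.999-fold lower in *Tlr7* KO (adjusted p = 0.00689) and 3.75-fold lower in *Ifnar1* KO glands (adjusted p = 0.0235). Without WT 2 the log2 fold changes of *C1qa*, *C1qb* and *C1qc* were -1.42, -1.30 and -1.21 in *Tlr7* KO glands and -2.49, -2.31 and -2.12 in *Ifnar1* KO glands. In each subunit the highest *Tlr7* KO values were those of mice 2 and 5, and the highest *Ifnar1* KO value was that of mouse 2.

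The chains kept a narrow ratio within each gland. Per length, *C1qa* was 1.02 to 1.32 times *C1qb* over the 11 mice, and *C1qc* was 0.672 to 0.863 times *C1qb*. Within these ranges WT and *Ifnar1* KO mice did not overlap. *C1qa* was 1.234 to 1.315 times *C1qb* in WT and 1.016 to 1.227 times in *Ifnar1* KO glands. *C1qc* was 0.684 to 0.748 times *C1qb* in WT and 0.750 to 0.855 times in *Ifnar1* KO glands. Both gaps were narrow, and counting error was not included. The ratio of 0.750, in *Ifnar1* KO 3, rests on 170 counts of *C1qc* and 205 of *C1qb*. Whether the ratios differ between the groups was not tested. *Tlr7* KO mice overlapped both groups. The profiles of *C1qa* and *C1qb* over the mice were the closest of all 45 pairs of complement genes, with a root mean square difference of 0.115 in centred log2 CPM, followed by *C1qb* and *C1qc* at 0.124. The genes outside the 10 whose profile was nearest to the mean C1q profile were *Cybb*, a subunit of the phagocyte NADPH oxidase (0.175), *Fxyd5* (0.190) and *Ifitm3*, an interferon-induced membrane protein (0.192). These were taken from 5041 genes with a median difference of 0.969 over the same 11 mice, and are given as a description.

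The RefSeq upstream sequences of *C1qb* and *C1qc* are shown because these chains fell together. Of the 10 genes, 5 were matched by symbol in the table of promoters (GRCm38.p6): *C1qb*, *C1qc*, *C1ra*, *C1s1* and *C3*. The 250 bases before each start were searched on both strands for the core of the interferon-stimulated response element (GAAA, any 2 bases, GAAA), the gamma-activated site (TTC, any 3 bases, GAA), the NF-kB site (GGGA, any 4 bases, CC) and the PU.1 box (GAGGAAG). The sequences below are from the reference strain C57BL/6J, on the minus strand at chr4:136886201-136886450 for *C1qb* and chr4:136892915-136893164 for *C1qc*, and capitals mark matches on either strand.
C1qb: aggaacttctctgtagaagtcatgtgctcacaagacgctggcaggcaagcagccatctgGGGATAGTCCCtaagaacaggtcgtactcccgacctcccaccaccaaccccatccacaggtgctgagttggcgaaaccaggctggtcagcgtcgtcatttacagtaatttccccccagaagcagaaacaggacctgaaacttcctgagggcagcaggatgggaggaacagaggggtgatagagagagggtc
C1qc: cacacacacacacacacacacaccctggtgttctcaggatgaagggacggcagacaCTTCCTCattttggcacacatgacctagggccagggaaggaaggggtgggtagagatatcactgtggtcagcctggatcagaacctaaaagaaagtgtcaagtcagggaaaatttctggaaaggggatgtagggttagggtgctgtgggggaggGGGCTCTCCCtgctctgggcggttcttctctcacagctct
Counted back from the start, the *C1qb* capitals hold 2 overlapping NF-kB motif matches, at -191 to -182 and on the other strand at -190 to -181. *C1qc* held a PU.1 box on the other strand at -194 to -188 and an NF-kB motif on the other strand at -40 to -31. Of 32851 promoters of the same length, 17.6% held the NF-kB motif and 10.6% held the PU.1 box. The response element core and the gamma-activated site, held by 2.98% and 7.02% of the promoters, had no match in the windows of these 5 genes. The RefSeq start of *C1qc* lies inside its GENCODE gene model. A match is a stretch of letters and not a measured binding site.

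Some macrophage genes fell beside the C1q subunits. The 15 macrophage genes, none of them at the floor in every mouse, summed to 211 to 387 CPM in WT, 187 to 222 CPM in *Tlr7* KO and 70.4 to 172 CPM in *Ifnar1* KO glands. Of these 15, 5 fell and 1 rose in *Tlr7* KO glands, and 8 fell and 1 rose in *Ifnar1* KO glands. For these and the lists that follow, 17.4% of all genes tested fell and 15.3% rose in *Tlr7* KO glands, and 12.4% fell and 6.76% rose in *Ifnar1* KO glands. The macrophage sums of WT and *Tlr7* KO mice overlapped. The C1q subunits together had 116 to 203 CPM in WT, 57.9 to 90.6 CPM in *Tlr7* KO and 24.0 to 57.5 CPM in *Ifnar1* KO glands. Their sum was 0.524 to 0.566 times the macrophage sum in WT, 0.309 to 0.409 times in *Tlr7* KO and 0.332 to 0.341 times in *Ifnar1* KO glands. WT 2, with the lowest C1q of the WT mice, had a ratio of 0.550, so the WT ratios were above those of all 8 KO mice. The 8 B cell genes fell from 80.4 to 280 CPM in WT to 6.42 to 50.4 CPM in *Tlr7* KO and 2.55 to 20.2 CPM in *Ifnar1* KO glands, and all 8 were lower in each KO group. The 9 T cell genes had 25.6 to 84.8, 5.92 to 31.3 and 1.47 to 15.2 CPM in the same order, with 7 of them lower in each KO group. The 12 interferon-stimulated genes had 79.2 to 280 CPM in WT, 68.6 to 202 CPM in *Tlr7* KO and 10.5 to 40.9 CPM in *Ifnar1* KO glands, and 1 of them fell in *Tlr7* KO and 11 fell in *Ifnar1* KO. The 6 genes of the interferon gamma response had 51.6 to 162 CPM in WT, 19.0 to 66.2 CPM in *Tlr7* KO and 5.07 to 30.6 CPM in *Ifnar1* KO glands, and 4 of them fell in *Tlr7* KO and 6 in *Ifnar1* KO. The 6 dendritic cell genes had 3.80 to 15.5, 2.43 to 6.30 and 1.09 to 3.77 CPM in the same order, and 2 of them fell in each KO group. The part of these cells and of the interferon response in the complement values was not tested.

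**Figure D2:**
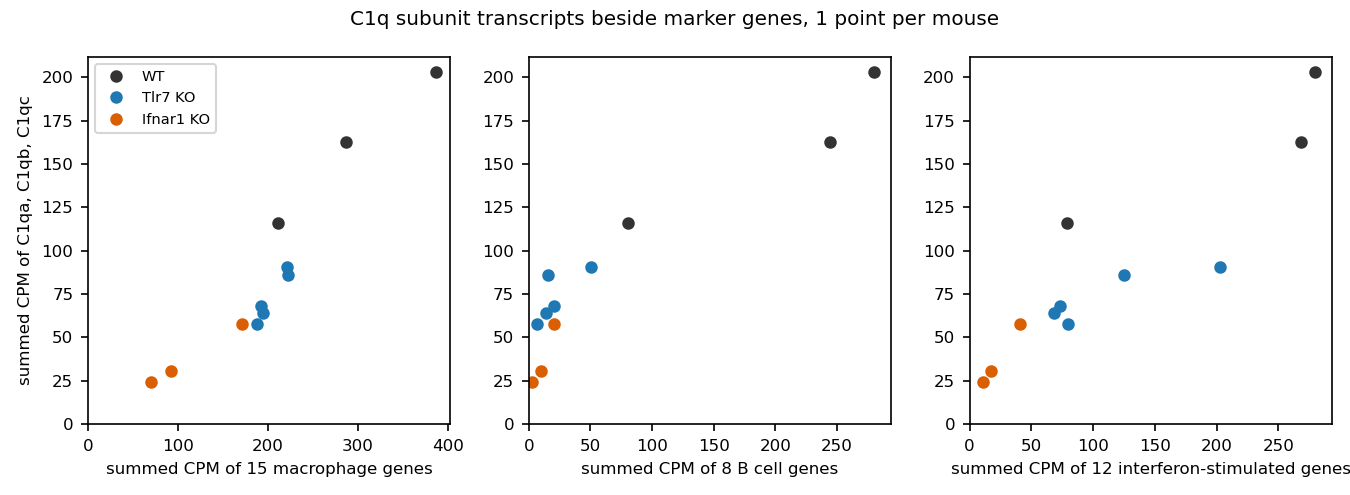
Summed CPM of *C1qa*, *C1qb* and *C1qc* (y axis) against the summed CPM of 15 macrophage, 8 B cell and 12 interferon-stimulated genes (x axes), 1 point per mouse, coloured by group. The KO mice with a macrophage sum near that of WT 2 (211 CPM) had at most 90.6 CPM of C1q, where WT 2 had 116 CPM.

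*C1ra* and *C1s1* encode the proteases C1r and C1s that ride on C1q. They lie next to each other on chromosome 6, at chr6:124512405-124523443 and chr6:124530345-124542359, on opposite strands. *C1ra* had 23.2, 9.11 and 19.5 CPM in WT, 7.46, 8.74, 7.02, 7.20 and 9.87 CPM in *Tlr7* KO, and 4.90, 5.64 and 4.31 CPM in *Ifnar1* KO mice. WT 2 lay within the *Tlr7* KO range and all *Ifnar1* KO mice lay below every other mouse. *C1ra* was 2.16-fold lower in *Tlr7* KO (log2 fold change -1.11 ± 0.25 SE, adjusted p = 0.0108) and 3.55-fold lower in *Ifnar1* KO glands (-1.83 ± 0.33, adjusted p = 0.0229). *C1s1* had 36.5, 14.0 and 30.9 CPM in WT, 9.79, 14.5, 7.97, 9.39 and 14.4 CPM in *Tlr7* KO, and 5.68, 9.71 and 4.69 CPM in *Ifnar1* KO mice. WT 2 was below 2 of the *Tlr7* KO mice, and *Ifnar1* KO 2 overlapped the *Tlr7* KO range. *C1s1* was 2.44-fold lower in *Tlr7* KO (adjusted p = 0.0113, or 0.0503 without WT 1) and 4.13-fold lower in *Ifnar1* KO glands (adjusted p = 0.0235). Without WT 2 the *Tlr7* KO log2 fold changes were -1.42 for *C1ra* and -1.60 for *C1s1*, and those in *Ifnar1* KO glands were -2.14 and -2.36. Part of each sequence recurs in a neighbouring copy. Of the 31-base words of *C1ra*, 56.9% were also in *C1rb*, and 33.5% of those of *C1s1* were in *C1s2*, while 18.4% of the exonic bases of *C1s1* overlap the antisense gene *Gm16567*. Their split between copies is therefore uncertain. The 8 fibroblast genes, which mark a stromal source known to make both proteases, summed to 88.5 to 210 CPM in WT, 110 to 195 CPM in *Tlr7* KO and 99.3 to 137 CPM in *Ifnar1* KO glands, with WT 2 lowest of all 11 mice, and their part in these values was not tested. The mean profile of *C1ra* and *C1s1* was nearest to *Fxyd5* (0.156), *Samhd1* (0.164) and the proteasome activator subunit *Psme2* (0.175).

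*C4b* encodes C4, the first substrate of C1s. *C4a*, also called *Slp*, is a duplicate of it whose product lacks ordinary C4 activity. Both lie on the minus strand of chromosome 17 in the major histocompatibility complex, at chr17:34728380-34743882 (*C4b*) and chr17:34809092-34823464 (*C4a*), and *C4a* is typed as a processed transcript in GENCODE M21. *C4b* had 51.6, 22.6 and 49.1 CPM in WT, 24.4, 27.2, 20.6, 23.2 and 25.4 CPM in *Tlr7* KO, and 13.0, 17.7 and 7.16 CPM in *Ifnar1* KO mice. WT 2 fell inside the narrow *Tlr7* KO range, and all *Ifnar1* KO mice were below both other groups. *C4b* was 1.71-fold lower in *Tlr7* KO (log2 fold change -0.77 ± 0.23 SE, adjusted p = 0.0294) and 3.32-fold lower in *Ifnar1* KO glands (-1.73 ± 0.40, adjusted p = 0.0290). Leaving out WT 1 ended the *Tlr7* KO call (adjusted p = 0.124) and leaving out WT 2 moved the log2 fold change to -1.07 (adjusted p = 0.000155), and to -2.03 in *Ifnar1* KO glands (adjusted p = 0.00648). Its nearest profiles were *Sirpa*, a myeloid inhibitory receptor (0.145), *Tapbp*, which encodes the MHC class I chaperone tapasin (0.194), and the lysosomal protease gene *Lgmn* (0.206).

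*C4a* had 17, 23 and 33 counts in WT, 4, 1, 2, 3 and 3 in *Tlr7* KO, and 3, 4 and 3 in *Ifnar1* KO mice. The KO mice were at or near the floor of 3 counts, and WT 2, low for the other 9 genes, was not low for *C4a*. Summed over mice and scaled by library, *C4a* was 7.44 times higher in WT than in *Tlr7* KO glands (95% interval 4.09 to 14.6) and 6.52 times higher than in *Ifnar1* KO glands (3.35 to 14.2), and these intervals cover counting error only. The edgeR adjusted p was 0.00205 against *Tlr7* KO and 0.0219 against *Ifnar1* KO glands. The filter on low counts used WT counts only, so *C4a* entered these tests through the group where it was high. Its adjusted p values are therefore given as a description. Without WT 2 the fitted log2 fold changes of *C4a* were -2.72 and -2.57, with adjusted p values of 0.00126 and 0.00982. The second deposited table gave a different picture. There *C4a* had 15, 3 and 22 counts in WT, 9, 3, 6, 4 and 8 in *Tlr7* KO, and 3, 6 and 1 in *Ifnar1* KO mice. WT 2 dropped from 23 counts to 3, and the WT and KO groups overlapped. The log2 fold changes were -0.77 ± 0.53 (SE, adjusted p = 0.293) in *Tlr7* KO and -1.81 ± 0.75 (adjusted p = 0.124) in *Ifnar1* KO glands, so neither *C4a* call held in that table. *C4b* kept both calls there, at -0.77 on the log2 scale (adjusted p = 0.0152) for *Tlr7* KO and -1.66 for *Ifnar1* KO glands (adjusted p = 0.0270).

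A stretch of exon 21 is shown because it holds differences by which *C4a* and *C4b* can be told apart. Over 5367 aligned bases the longest transcripts were 96.1% identical. Of the 31-base words of *C4a*, 43.3% also occurred in *C4b*. The 90 bases below, at chr17:34816086-34816175 in *C4a* and chr17:34735430-34735519 in *C4b* (GRCm38, minus strand), hold 14 mismatches, which are in capitals.
C4a: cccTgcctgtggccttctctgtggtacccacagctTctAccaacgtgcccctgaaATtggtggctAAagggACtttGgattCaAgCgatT
C4b: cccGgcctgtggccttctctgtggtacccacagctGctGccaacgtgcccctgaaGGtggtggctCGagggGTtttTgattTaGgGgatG
Per length, *C4b* exceeded *C4a* 23.2 to 88.8 times in WT glands, so the *C4a* counts were small beside those of its near copy. NOD sequence at these positions was not examined.

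*C2* encodes the protease that joins C4b in the classical C3 convertase, and *Cfb* its counterpart in the alternative pathway. They are neighbours on the minus strand, at chr17:34862604-34898265 (*C2*) and chr17:34856374-34862518 (*Cfb*). *C2* had 5.57, 2.99 and 4.89 CPM in WT, 2.91, 2.96, 2.01, 2.22 and 3.54 CPM in *Tlr7* KO, and 2.04, 1.79 and 1.26 CPM in *Ifnar1* KO mice. WT 2 overlapped the *Tlr7* KO mice and no WT mouse overlapped the *Ifnar1* KO mice. *C2* was 1.66-fold lower in *Tlr7* KO (log2 fold change -0.73 ± 0.24 SE, adjusted p = 0.0419, or 0.169 without WT 1) and 2.69-fold lower in *Ifnar1* KO glands (-1.43 ± 0.30, adjusted p = 0.0253). *Cfb* had 24.3, 7.08 and 20.9 CPM in WT, 8.72, 12.7, 7.40, 8.85 and 12.1 CPM in *Tlr7* KO, and 4.39, 5.64 and 3.01 CPM in *Ifnar1* KO mice. WT 2 was lower than all 5 *Tlr7* KO mice. *Cfb* had a log2 fold change of -0.82 ± 0.34 (SE) in *Tlr7* KO glands, which missed the threshold (adjusted p = 0.0895). Without WT 1 it was -0.51 (adjusted p = 0.334) and without WT 2 it was -1.19 (adjusted p = 0.00105). In *Ifnar1* KO glands *Cfb* was 4.09-fold lower (-2.03 ± 0.45, adjusted p = 0.0273), or -2.41 on the log2 scale without WT 2. Without WT 2 the log2 fold change of *C2* was -0.95 (adjusted p = 0.00491) for *Tlr7* KO and -1.65 (adjusted p = 0.00529) for *Ifnar1* KO glands. *C2* was nearest in profile to the receptor kinase gene *Axl* (0.155) and to *Serping1*, the C1 inhibitor gene (0.178), and *Cfb* to *Tapbp* (0.177) and *Ifitm3* (0.205).

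The values of *C2* and *Cfb* differed between the deposited tables. A read-through gene, *Gm20547*, shares 79.5% of the exonic bases of *Cfb* and 42.8% of those of *C2* on the same strand. In the main table *Gm20547* had 0 counts in all WT mice and at most 21 in any KO mouse. In the second table it had 0 in every mouse, *Cfb* had 0 to 7 counts per mouse, and *C2* had 3 to 21. The second table held a median of 0.985% of the main count of *Cfb* and 17.9% of that of *C2*, against 70.9% over genes with at least 50 counts in every mouse. *C1qa*, *C1qb*, *C1qc*, *C3* and *C4b* were between 68.8% and 73.6%, and *C1ra* and *C1s1* were at 56.6% and 53.3%. *Cfb* did not pass the filter in the second table. *C2* had a log2 fold change there of 0.08 ± 0.28 (SE, adjusted p = 0.909) in *Tlr7* KO, opposite in sign to the main table, and of -0.94 ± 0.47 (adjusted p = 0.193) in *Ifnar1* KO glands. The part of the shared exons in these differences was not tested.

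**Figure D3:**
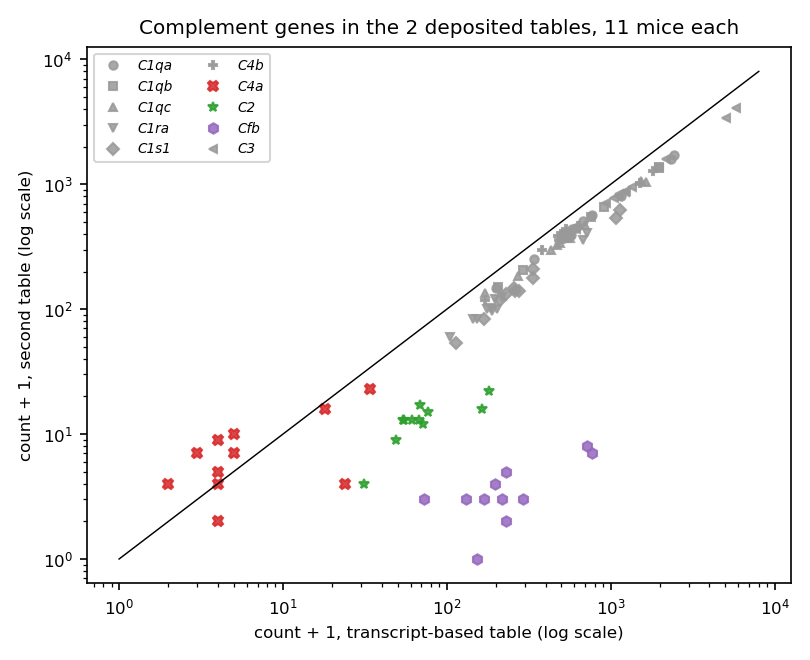
Count plus 1 of each complement gene in the second deposited table (y axis, log scale) against the main, transcript-based table (x axis, log scale), with 11 mice per gene and a line where the tables are equal. The counts of 7 genes run parallel to the line just below it, *Cfb* (at most 7 counts) and *C2* (at most 21) lie far below it, and *C4a* scatters around it.

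*C3* encodes the central component that every pathway cleaves, and lies on the minus strand at chr17:57203970-57228136 with 41 exons in its longest transcript. *C3* had 174, 91.6 and 158 CPM in WT, 51.3, 53.5, 41.7, 46.4 and 64.3 CPM in *Tlr7* KO, and 31.9, 39.3 and 25.6 CPM in *Ifnar1* KO mice. The groups did not overlap, and each *Ifnar1* KO mouse was below each *Tlr7* KO mouse. *C3* was 2.75-fold lower in *Tlr7* KO (log2 fold change -1.46 ± 0.20 SE, adjusted p = 0.00177) and 4.45-fold lower in *Ifnar1* KO glands (-2.15 ± 0.27, adjusted p = 0.0207). Without WT 2 its log2 fold changes were -1.69 and -2.39. In *Tlr7* KO glands *C3* kept its call with each mouse left out, with adjusted p values up to 0.00949. Per length, *C3* was 3.36 to 4.25 times *C4b* in WT and 2.06 to 2.65 times *C4b* in *Tlr7* KO glands, without overlap, while *Ifnar1* KO glands spanned 2.32 to 3.74. The upstream sequence of *C3* is shown because it held the most motif matches among the 5 genes with a sequence, 3 of the NF-kB motif, in capitals, at -197 to -188, -33 to -24 (on the other strand) and -10 to -1. It is read on the minus strand at chr17:57228137-57228386 (RefSeq, GRCm38.p6).
C3: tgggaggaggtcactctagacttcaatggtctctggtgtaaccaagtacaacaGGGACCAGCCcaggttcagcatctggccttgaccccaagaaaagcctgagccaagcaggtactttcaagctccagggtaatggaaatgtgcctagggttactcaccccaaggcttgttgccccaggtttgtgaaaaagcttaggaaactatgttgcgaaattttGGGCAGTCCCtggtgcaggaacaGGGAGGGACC
The genes nearest to *C3* in profile were *Fxyd5* (0.214), the proteasome activator subunit *Psme1* (0.249) and the tubulin gene *Tuba1b* (0.254).

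Comparing the KO groups directly, *C1ra* and *Cfb* were higher in *Tlr7* KO than in *Ifnar1* KO glands, 2 of the 10 genes, where 0.926% of all genes tested were higher, 0.868% were lower and 1.79% were called in all. *C1ra* was 1.63-fold higher (log2 fold change 0.70 ± 0.14 SE, adjusted p = 0.0402) and *Cfb* was 2.28-fold higher (1.19 ± 0.23, adjusted p = 0.0345). For both genes every *Tlr7* KO mouse was above every *Ifnar1* KO mouse. The same held for *C1qa*, *C1qb*, *C3* and *C4b*, so 6 of the 10 genes did not overlap, where 5.47% of all genes had all *Tlr7* KO mice above and 5.24% had all of them below. These 4 genes missed the threshold, *C1qa* at 1.04 (adjusted p = 0.0732), *C1qb* at 0.98 (adjusted p = 0.107), *C3* at 0.67 (adjusted p = 0.0694) and *C4b* at 0.93 (adjusted p = 0.0718) on the log2 scale. *C1qc* (0.88), *C1s1* (0.74) and *C2* (0.68) had adjusted p values of 0.144, 0.212 and 0.193, and *C4a*, near the floor in both groups, had -0.18 (adjusted p = 0.905). Over the 10 genes the median was 0.81, beside 0.00 over all genes. In this comparison 2 of 15 macrophage genes (median log2 fold change 0.81) and 11 of 12 interferon-stimulated genes (3.04) were called higher, with 0 called lower. Of the 8 B cell genes (1.06) 0 were called, and 2 of the 3 salivary gland genes tested were called lower. The part of these lists in the complement values was not tested. An unadjusted p under 0.05 was reached by 9 of the 10, where 16.3% of all genes reached it. The calls were not firm. Leaving out *Ifnar1* KO 1, *Ifnar1* KO 3 or *Tlr7* KO 1, 2, 4 or 5 left 0 of the 10 genes called, with 85 to 144 of all 13937 genes called. Leaving out *Tlr7* KO 3 left 1, with 92 of all genes called. DESeq2 called 7 of the 10 and 577 of all 13937 genes, whereas a single fit of all 11 mice (93 genes called in all) and scaling by library size only (170 genes) each called 0 of the 10. Leaving out *Ifnar1* KO 2, the *Ifnar1* KO mouse with the highest value of 9 of the 10 genes, raised the count to 8 and that over all genes from 250 to 877.

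**Figure D4:**
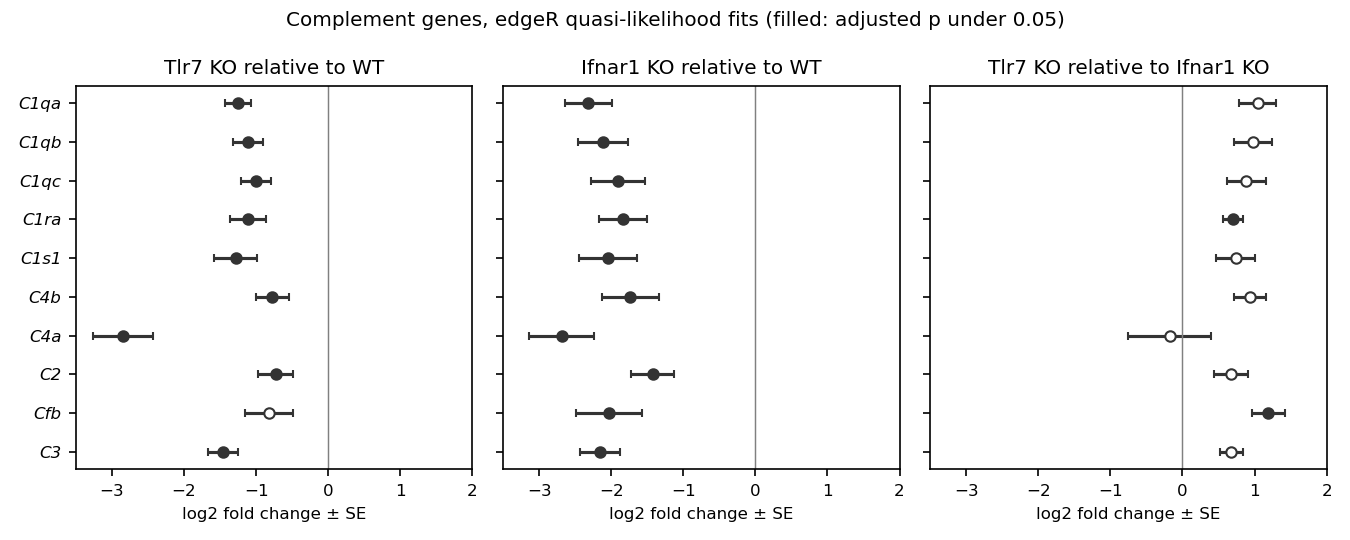
Log2 fold change ± SE (x axis) of the 10 complement genes for *Tlr7* KO relative to WT, *Ifnar1* KO relative to WT, and *Tlr7* KO relative to *Ifnar1* KO glands, with filled points at an adjusted p under 0.05. All 10 points are below 0 in both comparisons with WT, and 9 of 10, all but *C4a*, are above 0 in the comparison of the KO groups.

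Of 42 other complement genes listed, 35 were in the table and 28 were tested. In *Tlr7* KO glands 10 of the 28 were lower and 4 were higher than in WT, where 17.4% and 15.3% of all genes were lower and higher. In *Ifnar1* KO glands 11 were lower and 2 were higher, where 12.4% and 6.76% of all genes were. By role, 1 of 3 lectin pathway genes, 2 of 5 alternative pathway genes and C1 relatives, 0 of 3 terminal pathway genes, 3 of 10 regulators and 4 of 7 receptors were lower in *Tlr7* KO glands. The corresponding counts in *Ifnar1* KO glands were 2, 3, 0, 3 and 3. Among genes of the lectin pathway, *Fcna*, a ficolin of macrophages, was 2.69-fold lower in *Tlr7* KO (adjusted p = 0.0146) and 2.87-fold lower in *Ifnar1* KO glands (adjusted p = 0.0295). In the second table *Fcna* kept its call in *Tlr7* KO (adjusted p = 0.0294) and lost that in *Ifnar1* KO glands (adjusted p = 0.0527). The collectin gene *Colec12* was lower in *Ifnar1* KO glands (2.05-fold, adjusted p = 0.0348), and in *Tlr7* KO glands it had a log2 fold change of -0.54 (adjusted p = 0.0535, or 0.00524 in the second table). *Cfp* encodes properdin, which stabilises the alternative convertase that factor B forms, and fell 2.33-fold in *Tlr7* KO (adjusted p = 0.0182) and 3.83-fold in *Ifnar1* KO glands (adjusted p = 0.0234). The protease copies *C1s2* and *C1rb* were low, with WT means of at most 1.69 CPM. *C1rb* had 10 to 27 counts in WT and 4 to 5 in *Ifnar1* KO mice, near the floor of 3 counts, and passed the filter through WT. *C1s2* was lower in both KO groups (adjusted p = 0.0308 and 0.0317) and *C1rb* in *Ifnar1* KO glands (adjusted p = 0.0314), while the log2 fold change of *C1rb* in *Tlr7* KO glands was -1.15 (adjusted p = 0.0591, or 0.0233 in the second table). Their neighbour *C1rl*, a C1r-like protease, was 1.36-fold higher in *Tlr7* KO (adjusted p = 0.0130) and 1.46-fold higher in *Ifnar1* KO glands (adjusted p = 0.0357).

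Among the regulators that fell, *Serping1*, the inhibitor of C1r and C1s, had 54.6, 28.3 and 49.7 CPM in WT, 23.0, 21.5, 16.5, 17.9 and 26.9 CPM in *Tlr7* KO, and 19.0, 16.6 and 13.8 CPM in *Ifnar1* KO mice. No KO mouse reached a WT mouse. It was 2.102-fold lower in *Tlr7* KO (adjusted p = 0.00659) and 2.73-fold lower in *Ifnar1* KO glands (adjusted p = 0.0225). *Cd55*, a membrane inhibitor of convertases, was 3.88-fold (adjusted p = 0.00553) and 5.21-fold lower (adjusted p = 0.0241). The calls in the other direction among regulators and terminal genes were these. *Cd59b*, which blocks the membrane attack complex, was 1.94-fold higher in *Tlr7* KO (adjusted p = 0.0119) and 2.004-fold higher in *Ifnar1* KO glands (adjusted p = 0.0448), and *Cd59a* (1.43-fold, adjusted p = 0.0238) and *C8g* (1.89-fold, adjusted p = 0.00284) were higher in *Tlr7* KO glands. In *Ifnar1* KO glands *Cd59a* was at 0.41 (adjusted p = 0.200) and *C8g* at 0.80 (adjusted p = 0.0915) on the log2 scale. In the second table *Cd59b* had 0 to 2 counts per mouse, with WT mice at 1 to 2 and *Ifnar1* KO mice at 0, and was not tested there, while *Cd59a* kept its call (adjusted p = 0.0292). Scaling by library size only ended all 6 of these higher calls, those of *C1rl* included, and turned *C1rl* in *Tlr7* KO glands to -0.01, in a setting that moved the median of all genes to -0.54 (log2) in *Tlr7* KO and -0.31 in *Ifnar1* KO glands.

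Receptors for complement fragments differed among themselves. *Cr2*, the C3d receptor of B cells, had 9.91, 2.57 and 11.8 CPM in WT, 0.574, 2.43, 0.228, 0.659 and 0.317 CPM in *Tlr7* KO, and 0.510, 0.710 and 0.0837 CPM in *Ifnar1* KO mice. It was 9.65-fold lower in *Tlr7* KO (adjusted p = 0.00727) and 18.6-fold lower in *Ifnar1* KO glands (adjusted p = 0.0225). The lowest *Ifnar1* KO mouse had 2 counts of *Cr2*, below the floor of 3 counts, so the size of the latter fold is uncertain. *Itgb2*, the shared chain of the C3 fragment receptors CR3 and CR4, was 2.93-fold (adjusted p = 0.00952) and 5.03-fold lower (adjusted p = 0.0364). *Itgax*, the other chain of CR4 (2.45-fold, adjusted p = 0.0204), was lower in *Tlr7* KO glands, and missed the threshold in *Ifnar1* KO glands at -1.87 on the log2 scale (adjusted p = 0.0510, or 0.0464 in the second table). *C5ar2*, a C5a receptor, was also called lower there (adjusted p = 0.0314), but at 22, 4 and 16 counts in WT and 2 to 5 counts in *Tlr7* KO mice, near the floor of 3 counts, and WT 2 overlapped the *Tlr7* KO mice. *C3ar1*, the C3a receptor, had 3.79, 2.32 and 3.47 CPM in WT, 2.98, 3.78, 2.81, 3.38 and 2.75 CPM in *Tlr7* KO, and 1.12, 1.57 and 0.837 CPM in *Ifnar1* KO mice. The WT and *Tlr7* KO mice shared 1 range and the *Ifnar1* KO mice lay below it. *C3ar1* was 2.76-fold lower in *Ifnar1* KO than in WT (adjusted p = 0.0256) and 2.66-fold higher in *Tlr7* KO than in *Ifnar1* KO glands (adjusted p = 0.0168), the only one of the 28 called in that comparison, and its log2 fold change in *Tlr7* KO against WT was -0.03.

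**Figure D5:**
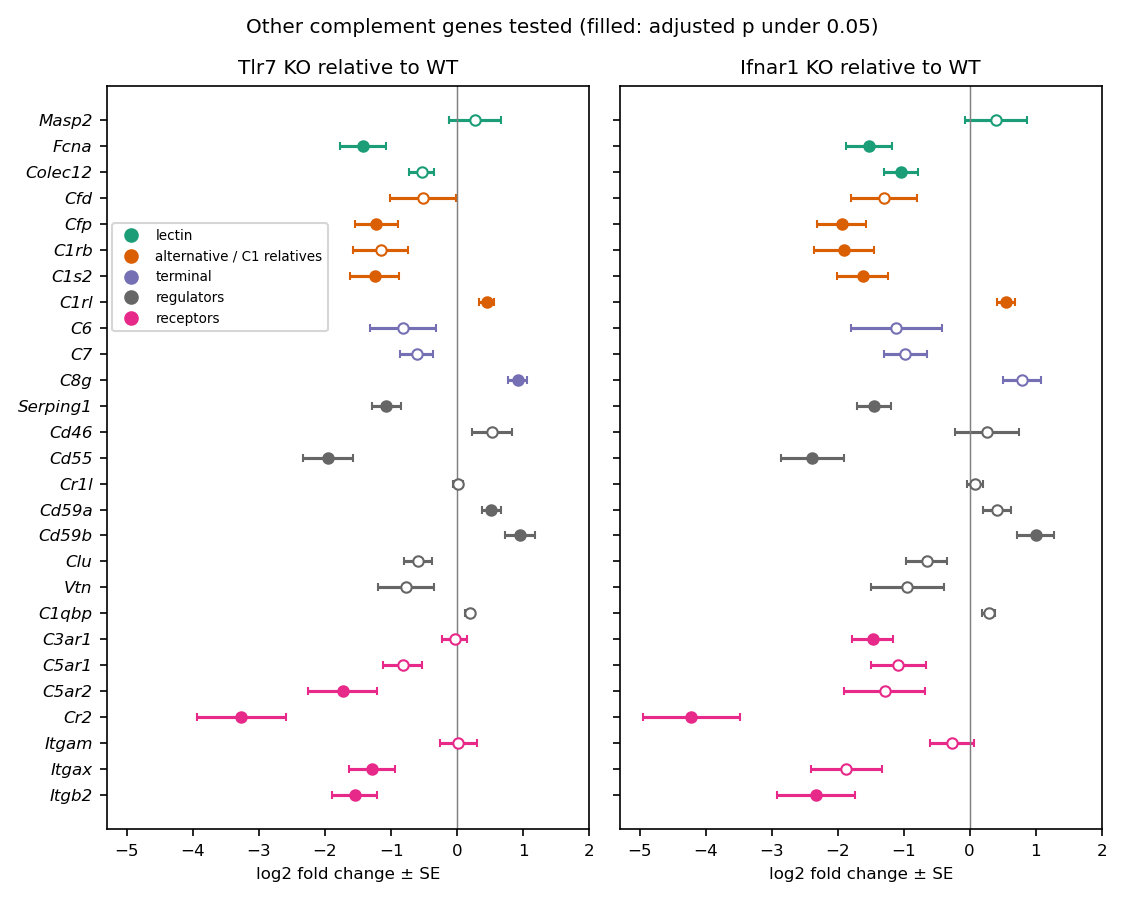
Log2 fold change ± SE (x axis) of the other complement genes tested and reported here, coloured by role, for *Tlr7* KO and *Ifnar1* KO relative to WT, with filled points at an adjusted p under 0.05. *Cr2* lies furthest left in both panels, *C3ar1* is at 0 on the left and below 0 on the right, and *C1rl* and *Cd59b* lie to the right of 0 in both.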

How the data were processed

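Whole lacrimal gland RNA from 3 WT, 5 *Tlr7* KO and 3 *Ifnar1* KO mice on the NOD strain was sequenced by the authors with Illumina chemistry. By the study's methods the authors estimated counts with salmon 0.9.1 in bcbio 1.0.8 against Ensembl 97. The main deposited table holds whole-number values for 19058 genes and is labelled normalized. Its column totals and size factors differ between mice as raw library depths do, so the values were taken as these estimated counts, rounded and not normalized. The second deposited table holds whole-number counts per gene for 39017 genes. HISAT2 2.1.0 and the build mm10 are in the submitters' processing notes, while the counter behind the second table was not given in the sources used here. Salmon shares reads among transcripts, which affects genes with near copies or shared exons. 1 column for a further *Ifnar1* KO mouse was not used.

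Main-table counts were tested with edgeR 4.0.16 (the study's methods name DESeq2; R 4.3.3, TMM, quasi-likelihood, two-sided), in a separate fit per pair of groups, on the 13937 genes with a summed WT count of at least 30. This filter used WT counts only, so genes with few counts in KO mice, such as *C4a*, *C1rb* and *C5ar2*, passed it through WT. Benjamini-Hochberg adjustment ran over the genes that passed, and genes with an adjusted p under 0.05 were called. No batch was modelled. P values measure the spread between mice. DESeq2 1.42.0, RLE size factors, library size only, other count filters, all 11 mice in a single fit, the replicate block, each mouse left out, an adjusted p under 0.01 and the second table served as alternatives. Log2 CPM for profiles used a prior count of 2, and profiles were compared with genes of at least 10 CPM on average. Gene positions and transcripts are from GENCODE M21.

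The 10 genes and all lists were chosen with earlier results of these data known, and *C4a* was already known to differ. Named genes are the 10, any other complement gene listed that was called in any comparison, *Tlr7* and *Ifnar1*, and the 3 genes nearest in profile, of which the nearest 2 or 3 are printed. A complement gene counted among the others is not reported here by name.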

Additional observations from a re-analysis of the deposited data

How the results depend on the processing

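All 10 genes kept a negative log2 fold change in both comparisons with WT under every alternative run, except *C2* in *Tlr7* KO glands in the second table (0.076). In *Tlr7* KO glands 9 genes were called under DESeq2, RLE size factors, the other count filters and a single fit of all 11 mice, 10 under library size only (4275 of all 13937 genes lower, against 2429), 7 in the second table (9 tested; 4009 of all 13050 genes called) and 5 at an adjusted p under 0.01 (1969 of all genes called, against 4564). Leaving out a mouse gave 6 (without WT 1) to 10 (without WT 2). In *Ifnar1* KO glands 10 were called under DESeq2 (3356 of all genes called, against 2677), RLE size factors (2681) and library size only (1339). The same 10 were called under the other count filters (2464 to 2638 of all genes) and the single fit (5124). There were 7 in the second table (2505 of all genes called) and 0 at an adjusted p under 0.01 (1 of all genes). Leaving out a mouse gave 0 (without WT 1, *Ifnar1* KO 1 or *Ifnar1* KO 3) to 10 (without WT 2). Over all genes edgeR then called 13 without WT 1, 103 without WT 3 and 0 without *Ifnar1* KO 1 or *Ifnar1* KO 3. Between the KO groups the 2 calls became 0 at an adjusted p under 0.01 (30 of all genes called, against 250), under library size only (170) and in the single fit (93). The count became 7 with DESeq2 (577 of all genes called), 1 in the second table (226), and 0 to 8 (without *Ifnar1* KO 2, 877) with a mouse left out. *C4a* between the KO groups turned to 1.03 in the second table and ranged from -0.32 to 0.013 (without *Tlr7* KO 2) with a mouse left out. Of the other complement genes, 14 called in *Tlr7* KO glands became 6 at an adjusted p under 0.01 and 7 (without WT 3) to 21 (without WT 2) with a mouse left out, where 2601 and 6595 of all genes were called. The 13 in *Ifnar1* KO glands became 0 at an adjusted p under 0.01, 7 under library size only (1339 of all genes called, against 2677) and 0 to 17 (without WT 2, 4643 of all genes called) with a mouse left out. The 1 between the KO groups became 0 at an adjusted p under 0.01 and 0 under library size only. With a mouse left out it was 0 (without *Ifnar1* KO 1, 91 of all genes called) to 2 (without *Ifnar1* KO 2, 877 of all genes called). The cause was not tested.

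Mice share replicate numbers across groups, but same-numbered mice did not deviate together in every pair (correlations across genes of -0.142, -0.400 and 0.0304 for WT and *Tlr7* KO, -0.158, -0.440 and -0.275 for WT and *Ifnar1* KO, and 0.0641 to 0.340 for the KO groups), and not every mouse correlated best with its own number. Between the KO groups, however, each *Ifnar1* KO mouse correlated best with the *Tlr7* KO mouse of its own number (0.0641, 0.340 and 0.260). What the numbers stand for was not given in the sources used here. With so few mice per group, these correlations cannot exclude a pairing or a shared batch. The main fits used no pairing. With the replicate block, edgeR called 0 of the 10 genes in *Tlr7* KO, 0 in *Ifnar1* KO and 8 between the KO groups. It called 0, 0 and 2 of the other complement genes, where it called 14, 0 and 502 of all 13937 genes. An unadjusted p under 0.05 was reached there by 7 of the 10 genes in *Tlr7* KO, beside 3631 of all genes. In *Ifnar1* KO all 10 reached it, beside 3787 of all genes. Counting error limits *C4a*, at 1 to 4 counts in KO mice.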
